A study of Mus musculus with 468 samples.

Results

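Ceramides are built in the endoplasmic reticulum and stand at the centre of sphingolipid metabolism, and the 10 genes described here encode steps of their synthesis, conversion and breakdown. Serine palmitoyltransferase, whose core subunits are encoded by Sptlc1 and Sptlc2, joins serine to palmitoyl-CoA, and the reductase encoded by Kdsr turns the product into sphinganine. Ceramide synthases then add a second fatty acid, each with its own preference for chain length: Cers2 for very long chains, Cers4 for long chains, and Cers5 and Cers6 mainly for the palmitoyl chain. Degs1 encodes the desaturase that makes ceramide from dihydroceramide, Sgms1 a sphingomyelin synthase of the Golgi, and Acer2 a Golgi ceramidase that releases sphingosine. In adipose tissue, ceramides are known for their link to obesity and insulin resistance.

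The genes were chosen by name, and all 10 were among the 23180 genes of the deposited table and among the 18380 that passed a filter on low counts. RNA was sequenced from the adipose tissue (the gonadal fat pad, per the methods of the study) of Diversity Outbred mice, an outbred stock in which the genomes of several inbred founder strains are mixed. Every mouse ate a high-fat, high-sugar (HFHS) diet with 45 percent fat, and no mouse on another diet was part of the series. The labels give neither sex nor age. Per the methods of the study, the mice were of both sexes and were harvested at the same age. Each mouse gave 1 library, so the libraries form 1 group and the SD of a gene is over mice, animal and assay error together. The comparisons are therefore relations over mice: with Lep, which encodes the adipocyte hormone leptin and is known to be expressed more in larger fat depots, and with Adgre1, which encodes the macrophage surface protein F4/80.

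A library held between 35.3 M and 137.8 M expected counts, and the median library 82.04 M. Genes of the Y chromosome (Ddx3y, Eif2s3y, Kdm5d and Uty) had counts in 51.5% of libraries and none in the other 48.5%. Every test below gave these sets their own level. For adipose tissue, the study gives as many males and females as there were libraries with and without such counts, respectively. Markers of adipocytes summed to between 8977 and 38400 CPM, as the tissue label says. CPM are a gene's counts per M counts of the library, whose total was first multiplied by its scaling factor (TMM). The tissue held other cells: 9 macrophage markers summed to between 300.8 and 4850 CPM. The sum of 4 markers of thermogenic adipocytes, Ucp1 among them, was between 6.012 and 5940 CPM. This sum differed between the sets. Its median in libraries without Y chromosome counts exceeded its highest value in libraries with them, where the median was 20.5 CPM. In bulk RNA, fewer cells of a type cannot be told apart from less RNA per cell.

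All coordinates are on GRCm38. Sptlc1 (ENSMUSG00000021468) lies on chromosome 13 from 53332748 to 53377397 and Sptlc2 (ENSMUSG00000021036) on chromosome 12 from 87305058 to 87388355. Kdsr (ENSMUSG00000009905) lies on chromosome 1 from 106720459 to 106759727. Among the synthases, Cers2 (ENSMUSG00000015714) lies on chromosome 3 from 95314791 to 95323599, Cers4 (ENSMUSG00000008206) on chromosome 8 from 4493026 to 4531680, Cers5 (ENSMUSG00000023021) on chromosome 15 from 99734881 to 99772885 and Cers6 (ENSMUSG00000027035) on chromosome 2 from 68861441 to 69114282. Degs1 (ENSMUSG00000038633) lies on chromosome 1 from 182275772 to 182282804, Sgms1 (ENSMUSG00000040451) on chromosome 19 from 32122727 to 32389714 and Acer2 (ENSMUSG00000038007) on chromosome 4 from 86874396 to 86934822. Cers2, Cers4, Cers5, Sgms1 and Sptlc2 are overlapped by annotated genes on the opposite strand, and genes of the same strand overlap Cers6. Use of strand in the counting is not given in the sources used here, so reads of these genes may be shared with their partners.

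The stretches before the transcription starts of Degs1, Cers6 and Acer2 are printed because these genes had the steepest relation to Lep, the steepest relation to Adgre1 and the steepest falling relations. They come from RefSeq (GRCm38.p6), run 5′ to 3′ on the strand of the gene, and leave out bases that GENCODE M21 places in an exon. Capitals mark a match on either strand to 1 of 4 motifs searched, namely the CCAAT box (CCAAT), the GC box (GGGCGG), the TATA box (TATAAA) and the palindromic E-box (CACGTG).
Degs1, chr1:182282225-182282445, minus strand: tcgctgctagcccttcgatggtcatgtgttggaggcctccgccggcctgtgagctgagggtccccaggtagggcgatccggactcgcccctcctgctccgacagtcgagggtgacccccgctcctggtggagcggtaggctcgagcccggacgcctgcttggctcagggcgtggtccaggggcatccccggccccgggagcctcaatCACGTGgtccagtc
Cers6, chr2:68861191-68861440, plus strand: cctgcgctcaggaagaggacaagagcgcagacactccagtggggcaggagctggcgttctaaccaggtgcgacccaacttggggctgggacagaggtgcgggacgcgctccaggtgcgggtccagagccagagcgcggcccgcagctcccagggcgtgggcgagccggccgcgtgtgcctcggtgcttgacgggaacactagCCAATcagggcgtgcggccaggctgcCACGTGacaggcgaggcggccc
Acer2, chr4:86874164-86874395, plus strand: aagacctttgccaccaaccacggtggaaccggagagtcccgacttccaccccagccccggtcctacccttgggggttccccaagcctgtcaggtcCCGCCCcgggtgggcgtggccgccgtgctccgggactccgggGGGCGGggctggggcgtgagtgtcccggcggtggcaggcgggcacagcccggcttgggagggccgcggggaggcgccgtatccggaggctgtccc

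Degs1 and Cers6 each held CACGTG, and Acer2 held GGGCGG on both strands. Over the 250 bases before the start, CACGTG was found in 3 of the 10 genes (Cers2, Cers6 and Degs1) and in 6.0% of all 32851 windows in the table. GGGCGG was found in 8 of the 10 genes and 32.7% of the windows, CCAAT in 5 of the 10 genes and 33.8%, and TATAAA in none of the 10 genes and 12.4%. A gene with several starts counted once if any of its windows held the motif, so the shares of genes and of windows are unlike units. Of the 14 windows of these genes, 3 held CACGTG, 9 GGGCGG, 5 CCAAT and none TATAAA. Their GC content ran from 45.6 to 76%, where the median of all windows was 52.4%. These are letter matches, and binding was not measured.

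Transcripts of all 10 genes were detected in every library, at levels that differed by more than an order of magnitude between genes. Per kilobase of the longest coding transcript, Degs1 was highest with 83.69 ± 25.75 CPM per kb (SD over all libraries), followed by Cers2 with 67.55 ± 9.388. The lowest were Cers4 with 7.587 ± 4.563 and Cers6 with 4.562 ± 1.954 CPM per kb. The order in between was Acer2, Sgms1, Cers5, Sptlc1, Kdsr and Sptlc2, from 20.63 down to 8.722 CPM per kb. Cers2 exceeded Acer2 in every library. Some neighbours in this order did not differ beyond their spread. Acer2 exceeded Sgms1 in 49.4% of libraries, Cers5 exceeded Sptlc1 in 58.1%, and Degs1 exceeded Cers2 in 66%. Sptlc2 exceeded Cers4 in 73.1%, Cers4 exceeded Cers6 in 79.7%, Sgms1 exceeded Cers5 in 81.6% and Kdsr exceeded Sptlc2 in 83.1%. In these pairs too the mean log2 difference was below its SD. Per merged exon length the mean of Sgms1 was 7.121 CPM per kb, below those of Kdsr with 8.019 and Sptlc2 with 7.212. This part of the order thus depends on the length used.

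Both subunits of the initiating enzyme varied little. Sptlc1 spanned 31.17 to 57.63 CPM around a median of 39.78, and its SD of 0.13 on the log2 scale was larger than that of only 4.01% of the 9508 genes averaging 10 CPM or more. Sptlc2 spanned 38.6 to 84.43 CPM around a median of 58.28, and its log2 SD was 0.19. Kdsr was more variable, from 31.77 to 132.4 CPM with a median of 63.58.

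The synthases differed most in their spread. Cers2 spanned 96.38 to 223.2 CPM around a median of 147.8, a 2.32-fold range. Cers5 covered a similar span, from 24.07 to 58.31 CPM with a median of 43.2. Cers4 spanned 17.19 to 297.4 CPM around a median of 59.83, a 17.3-fold range, and its log2 SD of 0.79 exceeded that of 93.3% of the genes at this level. Cers6 spanned 7.429 to 100.3 CPM around a median of 29.97, a 13.5-fold range. In CPM, Cers6 and Cers5 were below Cers2 in every library, whereas Cers4 exceeded Cers2 in 8.97%.

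Degs1 spanned 72.86 to 355.8 CPM around a median of 167.8, and Sgms1 from 34.15 to 136.2 CPM with a median of 74.85. Acer2 spanned 23.83 to 275.2 CPM around a median of 76.93, an 11.5-fold range. Median Cers4 was 40.9 CPM where Y chromosome counts were absent and 76.34 CPM where they were present, and median Cers6 was 22.3 and 37.18 CPM. Acer2 went the other way, with medians of 90.67 and 68.13 CPM. The ranges of both sets overlapped for each of the 10 genes, and the sets were not tested against each other.

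**Figure D1:**
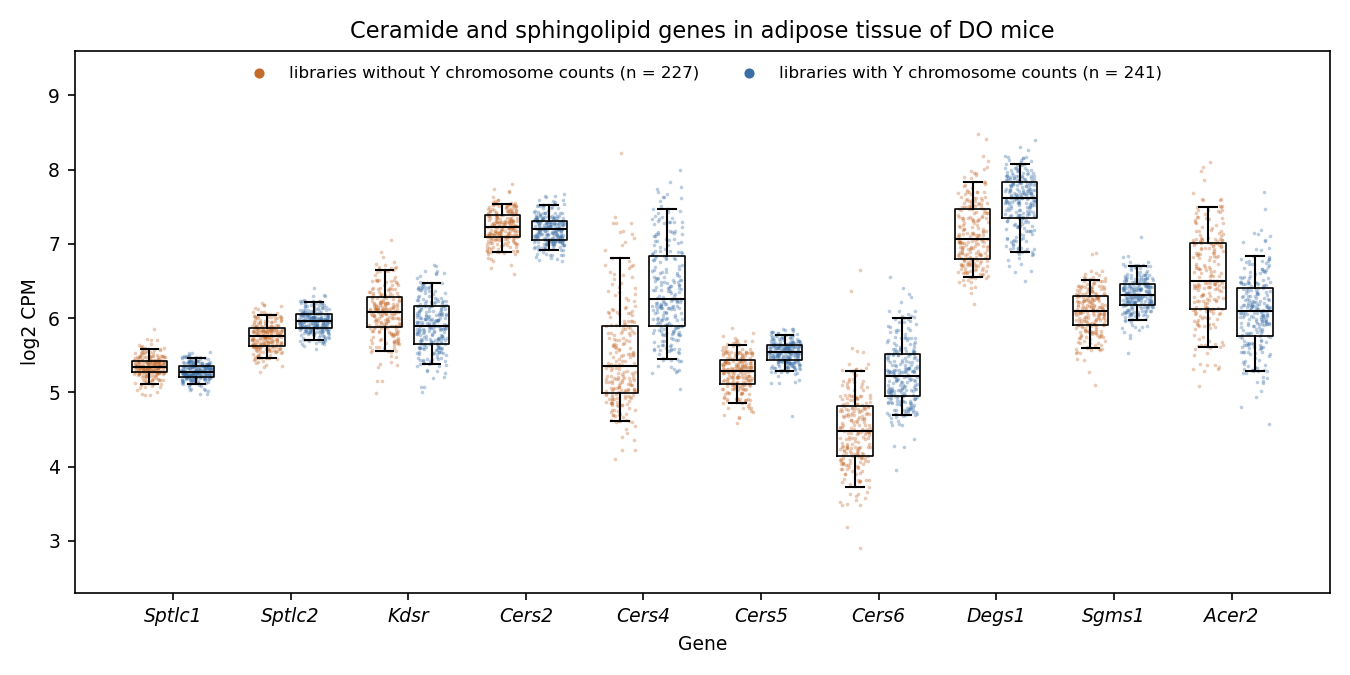
Log2 CPM (y axis) of the 10 genes (x axis), with 1 point per library, split into libraries without and with Y chromosome counts. Boxes show the quartiles and the median, and whiskers the 5th and 95th percentiles. Sptlc1 has the narrowest and Cers4 the widest spread.

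Lep itself spanned 0.7166 to 5418 CPM around a median of 1127, and Adgre1 a 61.4-fold range from 10.68 CPM up, with a median of 47.5. Lep and Adgre1 were related to each other, with r = 0.401 where Y chromosome counts were absent and r = 0.587 where they were present. Slopes below are the change of a gene in log2 units for each doubling of Lep or Adgre1, from edgeR's quasi-likelihood test over all genes, with p-values adjusted by Benjamini-Hochberg over all genes tested. A gene was called at an adjusted p under 0.05.

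All 10 genes were called in the relation to Lep: 6 rose (Degs1, Cers4, Cers6, Cers5, Sgms1 and Sptlc2) and 4 fell (Acer2, Kdsr, Cers2 and Sptlc1). With so many mice most genes were called, 33.5% of all genes tested rising and 41.3% falling, so that the calls themselves do not set the 10 genes apart. The sizes were also near those of other genes, with a median absolute slope of 0.065 over the 10 genes and 0.058 over all genes tested. The absolute slopes of Sptlc1, Sptlc2, Sgms1 and Cers2 were larger than those of only 24.2, 24.9, 28.2 and 43% of genes. Under library totals without TMM factors the share of rising genes among all calls went from 44.8 to 65.3%, and the median slope of all genes from −0.010 to 0.022. Under that scaling Sptlc1 lost its fall (slope 0.004, edgeR adjusted p = 0.363), and the other 9 genes kept their direction and their call.

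Degs1, the desaturase, was the gene most closely tied to Lep. Its slope was 0.206 ± 0.007 (SE, edgeR adjusted p = 1.94e-105), a 1.15-fold increase per doubling, and it ranked at place 23 by p among 18379 genes. Pearson's r was 0.813 without and 0.821 with Y chromosome counts, and Spearman's rho was 0.885 and 0.791. Among 9507 genes averaging 10 CPM or more, 24 had a higher r with Lep. The 5 blocks of consecutive library numbers gave r from 0.784 to 0.846, and the 5 blocks of mouse numbers from 0.744 to 0.866. The slope ranged from 0.192 to 0.237 over 14 alternative settings, and it was called in each of them.

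Cers4 had the next steepest rise, with a slope of 0.175 ± 0.019 (edgeR adjusted p = 3.73e-18), although its r with Lep was lower, at 0.407 without and 0.246 with Y chromosome counts. Cers5 had a slope of 0.063 ± 0.006 (adjusted p = 4.61e-26). Its relation was uneven between the sets of libraries, with r = 0.631 without Y chromosome counts and 0.181 with them, and Spearman's rho was 0.652 and 0.0253. Sgms1 rose by 0.030 ± 0.007 per doubling (adjusted p = 0.000127), with r = 0.319 without Y chromosome counts and 0.0161 with them. Among the libraries with Y chromosome counts alone, its slope was 0 with an adjusted p of 0.982. The difference between the sets was not tested for either gene.

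Acer2, the ceramidase, had the steepest fall with Lep, −0.164 ± 0.015 (edgeR adjusted p = 2.65e-25), with r of −0.437 without and −0.443 with Y chromosome counts. The library with the lowest Lep of the series, mouse DO349 at 0.7166 CPM, also held the highest Acer2, at 275.2 CPM. Without the 2 libraries farthest from the median Lep in each set, r was −0.397 and −0.456. Kdsr fell by 0.068 ± 0.010 per doubling, Cers2 by 0.048 ± 0.006 and Sptlc1 by 0.026 ± 0.004, the last with the change of direction under the other scaling given above.

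The relation to Adgre1 split the genes in the same directions. The same 6 rose and the same 4 fell, where 31.4% of all genes tested rose and 44.1% fell. The median absolute slope was 0.143 over the 10 genes and 0.107 over all genes tested. Under totals without TMM factors the share of rising genes among all calls went from 41.6 to 73.9% and the median slope of all genes from −0.026 to 0.064, Sptlc1 rose (slope 0.034, edgeR adjusted p = 2.83e-06) and the fall of Cers2 was not called (−0.017, adjusted p = 0.109). The Lep and Adgre1 fits use the same libraries, and their slopes are therefore not independent.

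Cers6 had the steepest rise with Adgre1, 0.288 ± 0.023 (edgeR adjusted p = 5.66e-30), a 1.22-fold increase per doubling. Its r with Adgre1 was 0.42 without and 0.642 with Y chromosome counts. Cers6 ranked at place 2239 by p among 18379 genes. Centred within both sets, 792 of 9507 genes averaging 10 CPM or more had a higher r with Adgre1. The mouse with the lowest Cers6 of the series, DO506 at 7.429 CPM, also had the lowest Adgre1 at 10.68 CPM. Degs1 rose by 0.244 ± 0.021 and Cers4 by 0.233 ± 0.040 per doubling of Adgre1. Sptlc2 rose by 0.096 ± 0.008 with an r of 0.471 and 0.505 in the sets without and with Y chromosome counts, against 0.297 and 0.202 with Lep.

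Along Adgre1, Acer2 fell by 0.283 ± 0.029 and Kdsr fell by 0.184 ± 0.018. Cers2 fell by 0.101 ± 0.011 and Sptlc1 by 0.049 ± 0.007, both with the changes under the other scaling given above. The weakest relations were those of Sgms1 (0.052 ± 0.015, edgeR adjusted p = 0.000746) and Cers5 (0.034 ± 0.012, adjusted p = 0.00591). Cers5 had a slope of 0.130 among the libraries without Y chromosome counts and −0.009 among those with them, the latter with an adjusted p of 0.455, and over all libraries except those of lowest total counts it was 0.021 and not called (adjusted p = 0.109). Among the libraries with Y chromosome counts the slope of Sgms1 was 0.021 (adjusted p = 0.208).

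**Figure D2:**
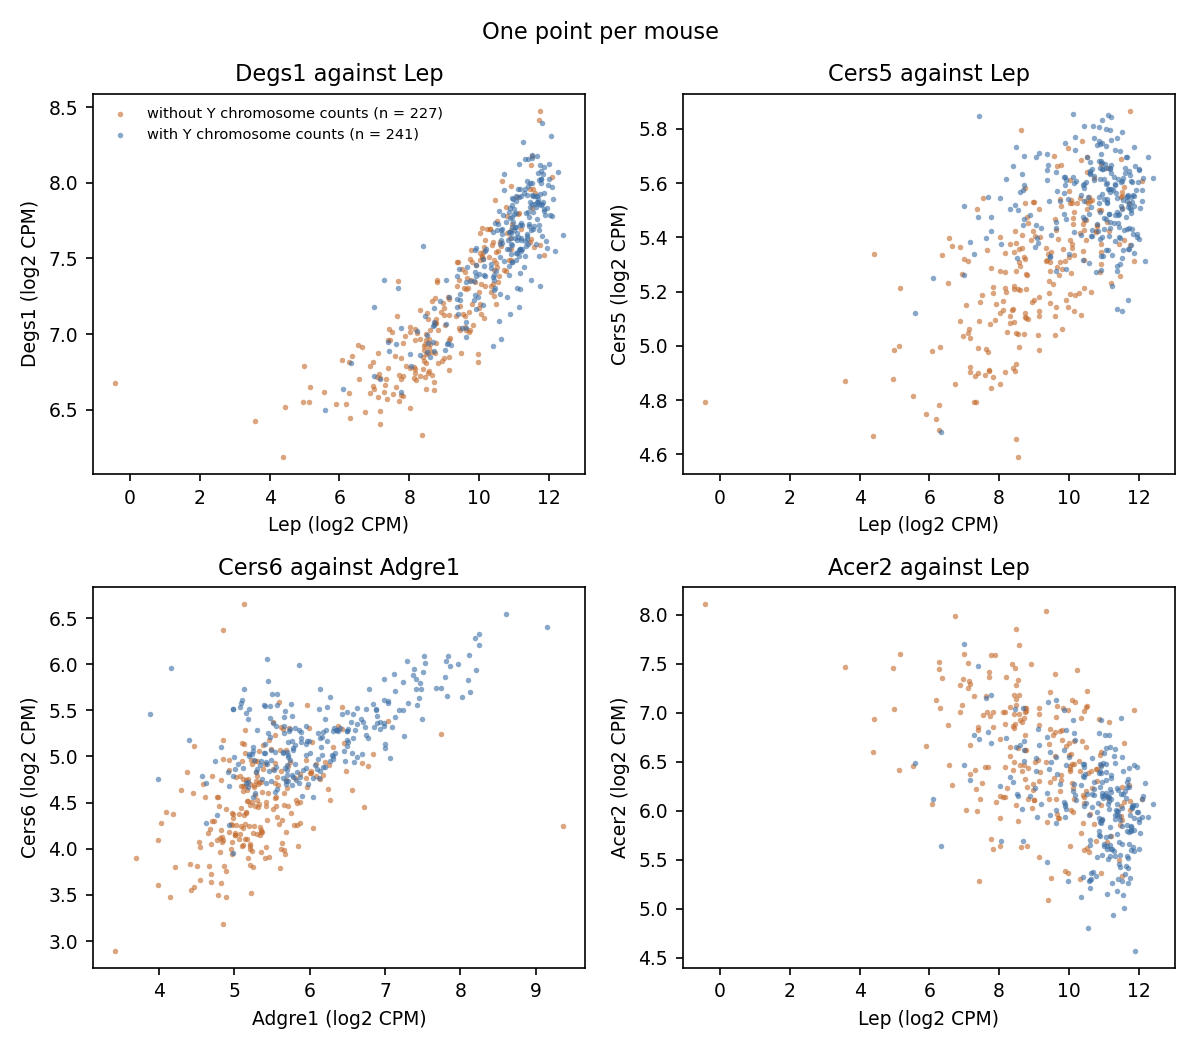
Log2 CPM of Degs1, Cers5 and Acer2 against Lep and of Cers6 against Adgre1, 1 point per mouse, coloured by the presence of Y chromosome counts. Degs1 follows Lep closely in both sets (r = 0.813 and 0.821), Cers5 mainly in the libraries without Y chromosome counts (r = 0.631 against 0.181), and the lone point at the far left of the Lep panels is mouse DO349.

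A permutation test of each r and rho (two-sided, 100000 resamples, smallest possible p 1e-05) was run within each set of libraries, 40 relations in all. After Benjamini-Hochberg adjustment over the 40, 37 values of r and 35 of rho passed 0.05. Other genes were not put through this test, so these counts do not set the 10 genes apart. Over 9507 genes averaging 10 CPM or more, the median absolute r, centred within both sets, was 0.292 with Lep and 0.271 with Adgre1. The 10 genes exceeded from 36.1% (Sgms1) to 99.7% (Degs1) of them with Lep. With Adgre1 this ran from 28.1% (Cers5) to 85.7% (Cers6). The 3 values of r that did not were all in libraries with Y chromosome counts: Sgms1 with Lep (raw p = 0.805, adjusted p = 0.805 by permutation), Cers5 with Adgre1 (raw p = 0.643, adjusted p = 0.659 by permutation) and Sgms1 with Adgre1 (raw p = 0.108, adjusted p = 0.114 by permutation). The same 3 relations failed by rho, and so did Sptlc1 (rho = −0.113, adjusted p = 0.0888 by permutation) and Cers5 (rho = 0.0253, adjusted p = 0.697 by permutation) with Lep, again in libraries with Y chromosome counts. For Degs1 with Lep, raw p was 1e-05 in both sets.

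With Lep and Adgre1 in 1 model, slopes of the genes shifted unequally. Given Adgre1, 4 of the 10 rose with Lep and 4 fell, where 29.9% of all genes tested rose and 35.8% fell. Given Lep, 3 rose with Adgre1 and 5 fell, where 27.1% rose and 40.5% fell. These counts depend on the model: given Lep, 7 rose and 2 fell with Adgre1 under totals without TMM factors, and 5 rose and 1 fell with an adipocyte score. Given Adgre1, 4 rose and 2 fell with Lep under totals without TMM factors. Degs1 kept most of its Lep slope (0.193 ± 0.008, edgeR adjusted p = 4.8e-83), while its Adgre1 slope was 0.061 ± 0.015 in place of 0.244. Cers4 had a Lep slope of 0.158 ± 0.022 (adjusted p = 1.68e-11), and its Adgre1 slope of 0.073 ± 0.042 was not called (adjusted p = 0.116). The latter ranged from 0.054 to 0.164 over the alternative settings and was called in 3 of 10, among them the adipocyte score (0.164, adjusted p = 0.00197). Cers5 had a Lep slope of 0.071 ± 0.006, and its Adgre1 slope was −0.030 ± 0.012 (adjusted p = 0.0188). The latter turned to 0.048 under totals without TMM factors and to 0.005 with an adipocyte score in the model.

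Cers6 and Sptlc2 showed the opposite arrangement. Cers6 had an Adgre1 slope of 0.30 ± 0.027 given Lep (edgeR adjusted p = 4.41e-25) and a Lep slope of −0.013 ± 0.015 given Adgre1 (adjusted p = 0.456). Sptlc2 had 0.093 ± 0.010 for Adgre1 (adjusted p = 8.11e-20) and 0.003 ± 0.005 for Lep (adjusted p = 0.65). Their Lep slopes in the single model, 0.067 and 0.026, were thus not called once Adgre1 was held. The Adgre1 slope of Cers6 ranged from 0.179 to 0.382 over 10 alternative settings and that of Sptlc2 from 0.089 to 0.168, and both were called in all 10. Without a term for Y chromosome counts, the Lep slope of Sptlc2 given Adgre1 was called (0.013, adjusted p = 0.0147).

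Acer2 kept a relation to both Lep and Adgre1. It fell by 0.119 ± 0.016 per doubling of Lep given Adgre1 and by 0.175 ± 0.032 per doubling of Adgre1 given Lep (edgeR adjusted p = 1.76e-12 and 2.9e-07). With an adipocyte score the latter was −0.046 and not called (adjusted p = 0.264), while the Lep slope was −0.116 and called. The Adgre1 slope of Kdsr given Lep was −0.160 ± 0.021 (adjusted p = 4.62e-13), or −0.054 with an adipocyte score (adjusted p = 0.0227). Its Lep slope given Adgre1 was −0.027 ± 0.011 (adjusted p = 0.0189) and was not called under totals without TMM factors (−0.016, adjusted p = 0.181). Cers2 fell by 0.029 with Lep and by 0.075 with Adgre1, and Sptlc1 by 0.017 and 0.034. Under totals without TMM factors the Adgre1 slope given Lep was 0.001 for Cers2 and 0.040 for Sptlc1, and the Lep slope of Sptlc1 given Adgre1 was −0.007 (adjusted p = 0.13), so these falls depend on the scaling. With an adipocyte score the Adgre1 slope given Lep was −0.017 for Cers2 (adjusted p = 0.258) and 0.001 for Sptlc1 (adjusted p = 0.897). Sgms1 had a Lep slope of 0.022 ± 0.008 (adjusted p = 0.0143) and an Adgre1 slope of 0.031 ± 0.016 (adjusted p = 0.0868). Neither was stable over the 10 alternative settings. The Lep slope was not called in 2 of them, without the libraries of lowest total counts (0.015) and without libraries high in markers of other tissues (0.010), and the Adgre1 slope was called in 5 and reached 0.103 under totals without TMM factors (adjusted p = 7.31e-09).

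**Figure D3:**
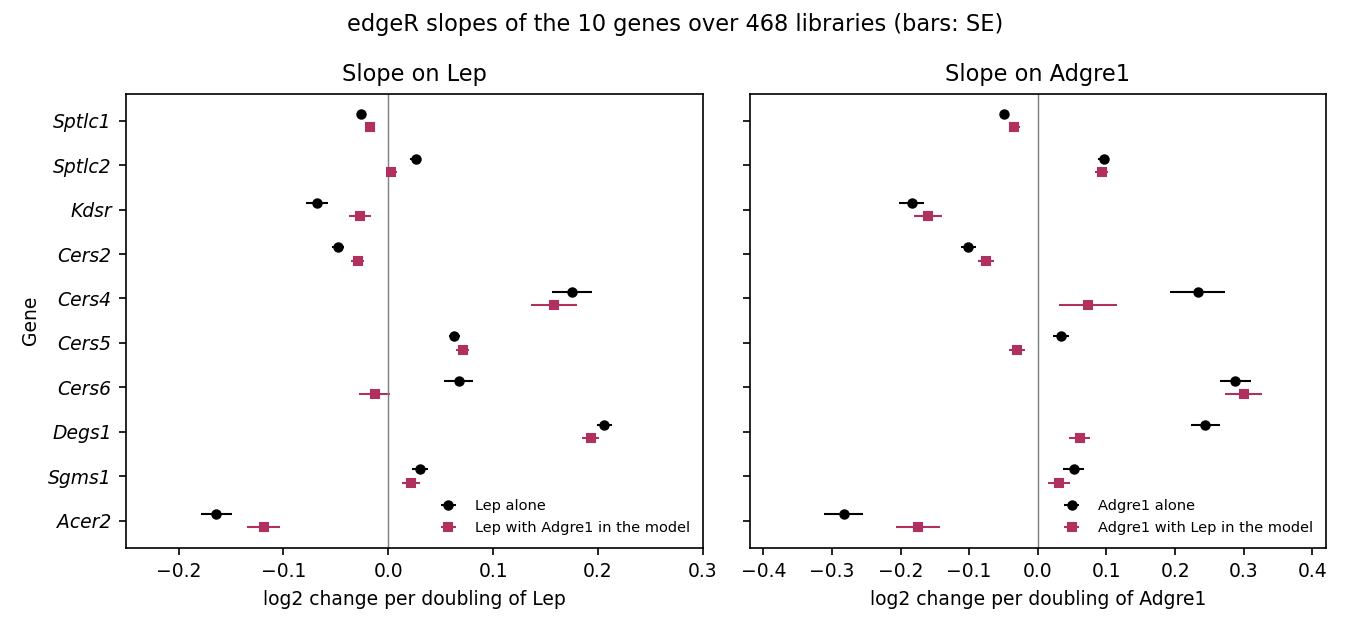
Slopes of the 10 genes on Lep (left) and Adgre1 (right), in log2 units per doubling, from edgeR over all libraries. Circles are from models with 1 of them, squares from the model with both, and bars are SE. Cers6 and Sptlc2 keep their Adgre1 slope and lose their Lep slope in the joint model, and Degs1 keeps its Lep slope. The falls of Sptlc1 with Lep, and of Sptlc1 and Cers2 with Adgre1 given Lep, turn to slopes of 0.004, 0.040 and 0.001 under totals without TMM factors, and so does the fall of Cers5 with Adgre1 given Lep, to 0.048. The single Adgre1 slope of Sptlc1 turns to 0.034.

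Markers of other cells moved with Lep and Adgre1. All 9 macrophage markers rose with both, 5 of 5 T cell and 5 of 5 B cell markers rose with Adgre1, and 8 of 8 adipocyte markers fell with Adgre1, while 7 fell and 1 rose with Lep. Of 7 progenitor markers, 3 rose with Lep and 5 with Adgre1, where 1 fell. Of 6 endothelial markers, 5 rose and 1 fell with Lep. All 4 thermogenic markers fell with Lep. With Lep, 2 T cell markers rose and 1 fell, 1 B cell marker rose, 1 of 5 mesothelium markers rose and 2 fell, and 3 of the 4 skeletal muscle markers tested fell, whereas none of 5 liver markers passed. With Adgre1, 1 endothelial marker fell, 2 thermogenic, 3 liver and 4 skeletal muscle markers fell, and 1 mesothelium marker rose and 2 fell. Under totals without TMM factors, 4 adipocyte markers fell with Lep and 6 with Adgre1, 5 endothelial markers rose with Adgre1, 6 progenitor markers rose with each, no liver marker passed, and no mesothelium marker fell. The only pancreas marker tested rose with both, and the only epididymis marker tested, Adam28, fell with Adgre1 except under that scaling, where it was not called.

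The 10 genes followed these markers unequally. Here r is with the mean of z-scored log2 CPM over the markers of a list, centred within both sets of libraries. Cers6 had r = 0.564 with the macrophage markers and −0.524 with the adipocyte markers, and Sptlc2 had 0.512 and −0.304. With the progenitor markers Cers6 had 0.425 and Sptlc2 0.447, and Adgre1 itself had 0.502. There Acer2 had −0.351, Sptlc1 −0.315, Cers2 −0.295 and Kdsr −0.212. Kdsr (0.557), Cers2 (0.505), Acer2 (0.461) and Sptlc1 (0.456) had positive r with the adipocyte markers. Degs1 had r = 0.469 with the macrophage and −0.162 with the adipocyte markers. With the macrophage markers Kdsr had −0.450, Acer2 −0.443, Cers2 −0.417 and Sptlc1 −0.320, and Cers4 had 0.196, Cers5 0.164 and Sgms1 0.160. Cers5 had r = −0.501 with the thermogenic markers, Cers6 −0.402, Degs1 −0.386, Sptlc2 −0.384, Sgms1 −0.224 and Cers4 −0.204. There Acer2 had 0.438, Sptlc1 0.292, Cers2 0.248 and Kdsr 0.141, and Lep itself had −0.346. The highest thermogenic sums lay in libraries without Y chromosome counts, and no r with these markers is given here for each set alone. With an adipocyte score in the model, the Adgre1 slope of Cers6 was 0.163 in place of 0.288, that of Acer2 −0.148 in place of −0.283 and that of Kdsr −0.075 in place of −0.184, all still called. The Lep slope of Cers6 (0.015, edgeR adjusted p = 0.276) and the Adgre1 slope of Sptlc1 (−0.013, adjusted p = 0.144) were not called in that model. The part that cell composition has in these slopes was not tested further.

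Among themselves the 10 genes did not move as one. Over the 45 pairs, r of log2 CPM centred within both sets of libraries had a median of 0.00315, with 23 positive and 22 negative values. The median absolute r was 0.243, against 0.155 over all pairs of genes averaging 10 CPM or more. Totals without TMM factors gave a median r of 0.219. No value over all pairs of genes is given here for that scaling, so 0.219 cannot be placed among other genes. The highest values were those of Cers5 with Degs1 (0.487), Sptlc2 with Cers6 (0.443), Sptlc2 with Sgms1 (0.415), Sptlc1 with Cers2 (0.407) and Cers4 with Degs1 (0.400). The lowest were Degs1 with Acer2 (−0.416) and Cers2 with Cers6 (−0.353).

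Sptlc1, Cers2, Kdsr and Acer2 were positively related in all their pairs, with r from 0.297 to 0.407. The subunits Sptlc1 and Sptlc2 of the same enzyme had r = −0.267, with −0.341 and −0.156 in the libraries without and with Y chromosome counts. The sign was the same in both sets in 37 of the 45 pairs. Cers2 with Cers5 was an exception, with r = −0.327 without and 0.32 with Y chromosome counts, and Kdsr with Cers5 had −0.201 and 0.297.

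After Lep and Adgre1 were removed as well, the median absolute r fell to 0.124 and 33 of 45 pairs were positive. Sgms1 with Acer2, both Golgi enzymes that act on ceramide, then had the highest r, at 0.508 in place of 0.325. Sptlc2 with Sgms1 held 0.387. Cers5 with Degs1 dropped from 0.487 to 0.211, and Degs1 with Acer2 went from −0.416 to −0.0761. These are descriptions over libraries that share total counts and scaling.

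**Figure D4:**
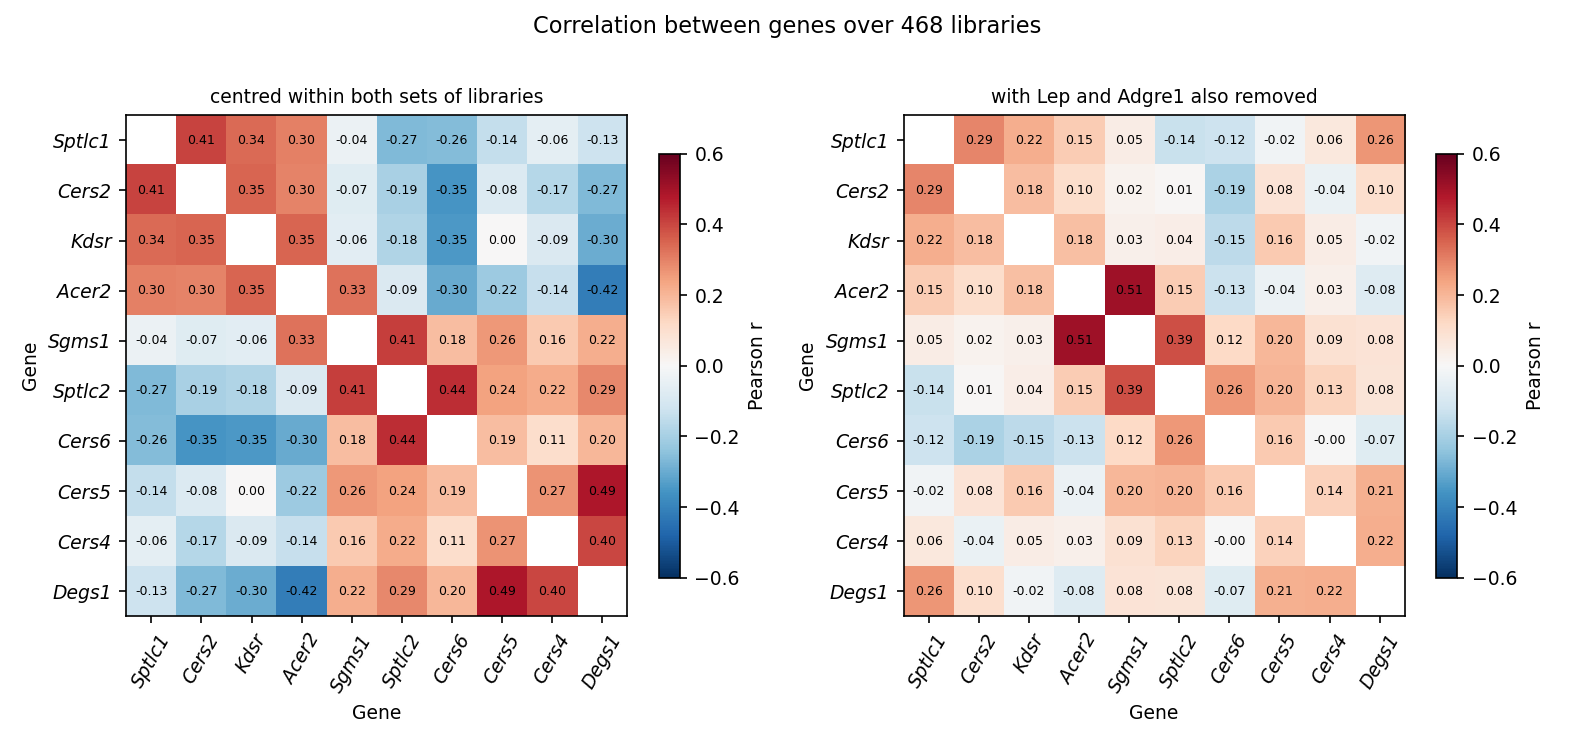
Pearson r between the 10 genes over all libraries, centred within the libraries with and without Y chromosome counts (left) and with Lep and Adgre1 also removed (right). Both axes list the genes, and red is positive and blue negative. The block of Sptlc1, Cers2, Kdsr and Acer2 is red on the left, and Sgms1 with Acer2 is the strongest pair on the right.

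Differences within a library compare enzymes that act on the same or neighbouring substrates. The log2 difference of Cers6 to Cers2 ranged from −4.47 to −0.07 with a median of −2.30, and its r with Adgre1 was 0.476 without and 0.693 with Y chromosome counts. The difference of Cers5 to Cers2 had r with Lep of 0.602 and 0.518. That of Cers4 to Cers2 had 0.455 and 0.344. Sptlc2 exceeded Sptlc1 in CPM in 97.2% of libraries, and their log2 difference had r with Adgre1 of 0.51 and 0.551. The log2 difference of Acer2 to Degs1 ranged from −3.33 to 1.5 and fell along Lep, with r of −0.693 and −0.727. Acer2 exceeded Degs1 in CPM in 14.1% of libraries.

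The genes that most resembled each of the 10 over the libraries were taken among the 9508 genes averaging 10 CPM or more. Degs1 had by far the closest: the heme transporter gene Slc48a1 and the acyltransferase gene Lpgat1, each with r = 0.883, and Jpt2 with 0.858. Acer2 was followed by Osbpl11, an oxysterol-binding protein family member, with 0.728, Dcun1d3 with 0.712 and Ppp2r2d with 0.711. Cers6 was nearest to Soat1, the cholesterol acyltransferase, with 0.624, then Atp2b1 (0.618) and Plxnb2 (0.614). Cers5 was nearest to Fads3 of the fatty acid desaturase family (0.639), Myl12a (0.620) and Npr3, the natriuretic peptide clearance receptor (0.612).

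Sptlc1 was nearest to the NAD kinase gene Nadk (0.632), Pgrmc2 (0.607) and Cnbp (0.601), and Sptlc2 to the transcription factor gene Elf4 (0.621), Parvb (0.617) and Tagln2 (0.605). Kdsr was nearest to D2hgdh (0.627), Agmo (0.599) and Aldh6a1 (0.590), which are enzymes of hydroxyglutarate, ether lipid and valine breakdown. Sgms1 was nearest to Lrrc8a, a volume-regulated anion channel subunit (0.661), Mcf2l (0.598) and Klf6 (0.584). The genes near Cers2 included Mrpl9 (0.658) and S100a1 (0.602), which lie on chromosome 3 as Cers2 does, at 0.864 and 4.8 Mb from it.

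Cers4, the most variable of the 10, had no close companion. Its highest r were 0.403 with Arhgef7, 0.400 with Stam2 and 0.400 with Degs1. Arhgef7 lies 7.2 Mb from Cers4 on chromosome 8, and the lowest r of all genes was −0.490 with Mcoln1, a lysosomal channel gene at 0.978 Mb. Over the 18 genes within 2 Mb of Cers4, the median absolute r was 0.26, against 0.125 over all genes at this level. The neighbours of Cers5 (0.229 against 0.166), Sptlc2 (0.228 against 0.187), Cers2 (0.233 against 0.198), Sptlc1 (0.226 against 0.194), Degs1 (0.3 against 0.281) and Sgms1 (0.116 against 0.11) were also above their background. Those of Kdsr (0.0812 against 0.19), Acer2 (0.202 against 0.233) and Cers6 (0.182 against 0.204) were below it. Genotypes were not analysed here.

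Among 44 other symbols of the sphingolipid pathway, 41 were tested. With Lep, 24 rose and 8 fell, where 33.5% of all genes tested rose and 41.3% fell. With Adgre1, 25 rose and 13 fell, where 31.4% rose and 44.1% fell. Under totals without TMM factors, where rising genes made up 65.3% and 73.9% of all calls, 32 rose and 4 fell with Lep, and 31 rose and 4 fell with Adgre1. Their median slope was 0.039 with Lep and 0.076 with Adgre1, where the median of all genes was −0.010 and −0.026. The list of transfer and complex sphingolipids had 8 of 10 tested genes rising and none falling with Lep, and 7 rising and 2 falling with Adgre1. It holds the steepest rises: Ugt8a, the galactosylceramide synthase (0.777 ± 0.071 with Lep and 1.222 ± 0.156 with Adgre1, at a median of only 0.253 CPM), and the lactosylceramide synthase genes B4galt6 (0.197 ± 0.014 with Lep) and B4galt5 (0.570 ± 0.019 with Adgre1). These slopes were all called by edgeR, also under totals without TMM factors.

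Regulators of serine palmitoyltransferase had 4 of 6 rising and 1 falling with each of Lep and Adgre1. Of the other synthases and desaturases, 1 rose (Degs2) and 2 fell (Cers1 and Cers3) with each, and all 3 were at means of 2.32 CPM or less. Under totals without TMM factors the fall of Cers3 with Lep (adjusted p = 0.257) and of Cers1 with Adgre1 (adjusted p = 0.182) was not called. Breakdown genes had 6 of 10 rising and 2 falling with Lep, and 5 rising and 5 falling with Adgre1, but 9 rising and none falling with each under totals without TMM factors. Genes of sphingosine 1-phosphate had 5 of 12 rising and 3 falling with Lep, and 8 rising and 3 falling with Adgre1, with the receptor genes S1pr3 (0.178 ± 0.018 with Lep) and S1pr2 (0.569 ± 0.019 with Adgre1) the steepest.

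**Figure D5:**
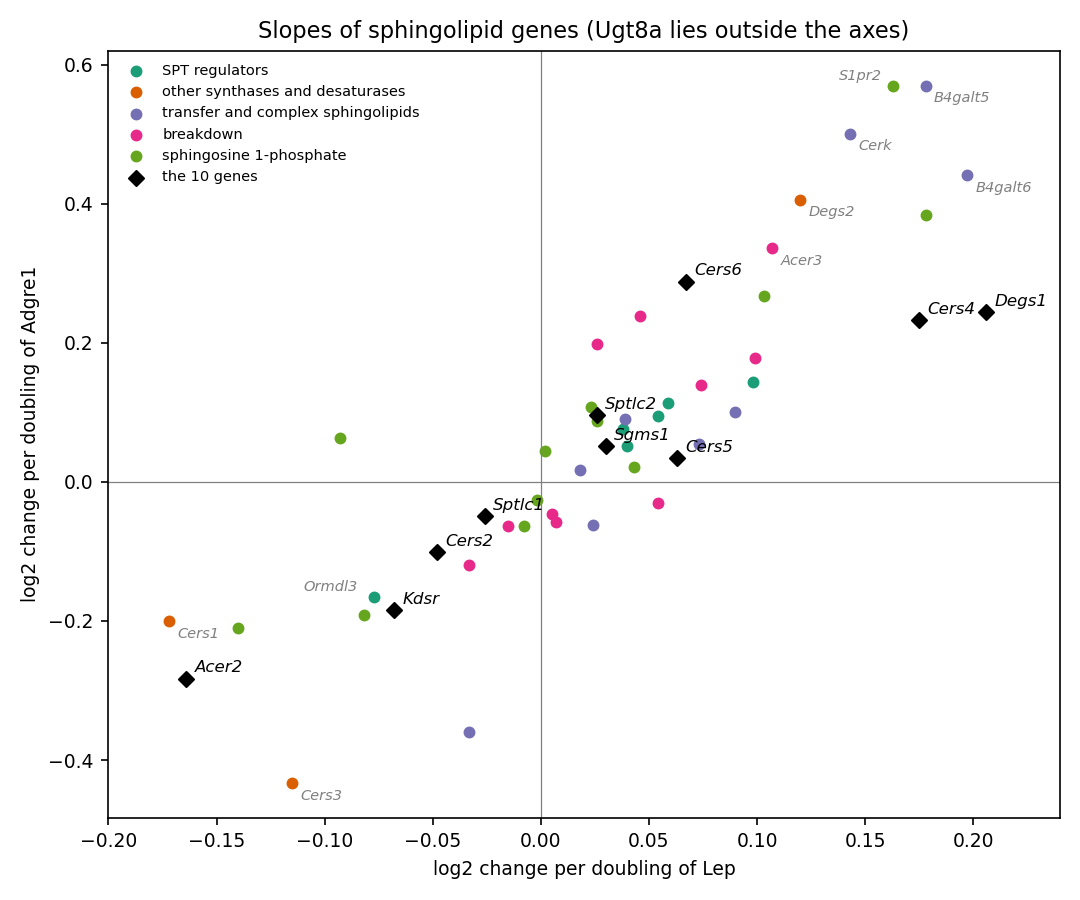
Slope on Adgre1 (y axis) against slope on Lep (x axis), both in log2 units per doubling from edgeR, for the 10 genes (black diamonds) and the other pathway genes (circles by list), both slopes from the same libraries. Ugt8a (0.777 and 1.222) lies outside the axes. Degs1 and Cers4 lie far to the right, and Acer2 at the lower left. Under totals without TMM factors the slopes of Sptlc1 are 0.004 on Lep and 0.034 on Adgre1.

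Mouse and library numbers were taken as stand-ins for the order of rearing and sequencing, which the labels do not name. Libraries without and with Y chromosome counts mostly alternated in long runs of mouse numbers, such as DO021 to DO070 without and DO071 to DO120 with. No fit here separated the sets from these runs. Per 100 mouse numbers, 1 of the 10 genes was called, where 13.8% of all genes tested were. This was Sptlc2, which fell by 0.017 ± 0.005 (edgeR adjusted p = 0.00998). Without a term for Y chromosome counts Sptlc2 was not called (−0.002, adjusted p = 0.79), and Kdsr, Cers5 and Acer2 were. Per 100 library numbers none of the 10 was called by edgeR or by limma, 3 had an unadjusted p under 0.05 in edgeR, and 0.294% of all genes were called. The Lep and Adgre1 slopes of all 10 genes stayed called with both numbers in the model, where 74.6 and 75.4% of all genes tested were called.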

How the data were processed

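The 468 libraries, 1 per mouse, form 1 group, and 241 of them held counts of Y chromosome genes and 227 none. Per the labels and the methods of the study, polyadenylated RNA was sequenced, and reads were assigned by EMASE, run by GBRS, against a transcriptome of the founder strains. The authors deposited expected counts per gene on GRCm38 (66.78% of values were whole within 1e-06). Values on a log2 scale, made with the variance stabilizing transformation (VST) in DESeq2, were deposited too and served as an alternative. Tool versions and strandedness: not given in the sources used here. Gene positions came in Mb from the annotation of the authors, and all 23180 identifiers were found in GENCODE M21.

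Genes with at least 10 counts in at least 50% of libraries were kept (18380). Rounded expected counts entered edgeR 4.0.16 (TMM factors 0.5793 to 1.363, quasi-likelihood test). Log2 CPM used a prior count of 2 and unrounded counts. Lep or Adgre1 (log2 CPM) was the covariate beside the presence of Y chromosome counts, and the covariate gene was left out of the test. SE is the absolute slope divided by the square root of F. The fit was tested on simulated data. Alternatives used limma 3.58.1, DESeq2 1.42.0, other scalings, filters, covariates and sets of libraries. One alternative left out libraries high in markers of other tissues, which kept 359, and another those of lowest total counts, which kept 421. The adipocyte score is the mean of z-scored log2 CPM of 8 markers. Correlations used Python with scipy.

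The named genes are the 10, their covariates, the 3 nearest genes of each (1 near Cers2 is not reported here), and the 3 pathway genes of largest slope in each fit. Degs2, Cers1, Cers3, Ormdl3, Sptlc3 and Mcoln1 were named after their values were seen, and so were the counts of genes within 2 Mb. Members and lists were chosen with earlier results of these data known. P-values measure the spread between mice, with each mouse treated as independent. Kinship, generation and wave, which the study had in its models, were not terms here. Counting error was not separated from the spread between mice.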

Additional observations from a re-analysis of the deposited data

How the results depend on the processing

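No paired analysis was possible because the libraries form 1 group, with 1 library per mouse. The counts and medians recomputed under other settings stayed within 1.5 times the main count or within the spread, except in 12 cases. Among those that stayed were the 10 genes called with Lep and with Adgre1 (8 to 10 over the settings, where 63.6 to 79.2% of all genes tested were called). Totals without TMM factors gave 2 of the 10 genes falling in place of 4 with Adgre1 and with Lep given Adgre1. With Adgre1 given Lep, 7 rose in place of 3 and 2 fell in place of 5 under these totals, 5 rose and 1 fell with an adipocyte score, and 5 rose without a term for Y chromosome counts. Without that term, the mouse number fit called 3 of the 10 genes in place of 1, and 23.7% of all genes in place of 13.8%. The library number fit called 0.613% of all genes without the filter on low counts and 0% with limma on log2 CPM or on VST values (1556 and 1482 at an unadjusted p under 0.05), in place of 0.294%. Totals without TMM factors (for the slopes an alternative chosen after seeing the data) turned the Lep slope of Sptlc1 to 0.004 and its Adgre1 slope to 0.034, or 0.040 given Lep. They also turned the Adgre1 slopes given Lep of Cers2 to 0.001 and of Cers5 to 0.048, and r of Sptlc1 to 0.061 with Lep and 0.229 with Adgre1. An adipocyte score turned the Adgre1 slopes given Lep of Sptlc1 to 0.001 and of Cers5 to 0.005. Libraries with Y chromosome counts alone turned the Adgre1 slope of Cers5 to −0.009. In the joint models, totals without TMM factors moved the share of rising calls from 45.5 to 53.8% for Lep and from 40.1 to 77.7% for Adgre1. The causes were not tested. Leaving out the libraries high in markers of other tissues kept all 10 genes called with Lep and with Adgre1, where 72.2 and 73.8% of all genes tested were called. Reads that EMASE divides between overlapping genes set a further limit.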
